A study of Rattus norvegicus with 9 samples.

Results

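The miRNAs rno-miR-224-5p and rno-miR-452-5p are the leading arms of precursors that lie together in a GABA receptor gene, and they are described here in rat cornea. They are 2 of the 765 mature miRNAs in the deposited table and were matched by name. Both were chosen by their measured values, for a rise in isografts that was smaller in allografts. Their differences between the groups are therefore given as a description, with no test. Small RNA was sequenced from 3 samples each of normal, isograft and allograft cornea. Every sample, allografts included, is labelled as a Wistar rat 6 weeks old. In an isograft, by the meaning of the word, donor and recipient are genetically matched, and in an allograft they differ. The labels give no donor strain and no time since grafting, and they do not say whether a sample is 1 cornea or a pool. Separate animals are not stated either, so the spread within a group may be technical. Each library is called here by its group and its title's number (12, 34 or 56), whose meaning the labels do not give.

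miR-224 and miR-452 are produced from the transcript of Gabre, which encodes the epsilon subunit of the GABA-A receptor, an ion channel opened by the transmitter GABA. A miRNA precursor folds into a hairpin, and one arm, the guide, is usually kept to pair with target mRNAs through its seed. miR-224 is known as a miRNA induced by TGF-beta in ovarian granulosa cells, where it acts on the signal transducer Smad4, and as a miRNA raised in liver cancer. The cornea holds a stratified epithelium, a stroma of collagen and keratocytes, and an inner cell layer called the endothelium.

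The mature arms and the hairpin of miR-224 are shown because the guide carries nearly all reads of this precursor. They come from RefSeq (build GRCr8), which holds 1 of the 2 miRNAs, miR-224-5p. Of the 765 listed names 690 matched this table. The hairpin lies at chrX:155107130-155107211 on the minus strand, within the Gabre gene. In the mature arms capitals mark the seed, bases 2 to 8, and in the hairpin they mark the 2 mature arms.
rno-miR-224-5p: cAAGUCACuagugguuccguuu
rno-miR-224-3p: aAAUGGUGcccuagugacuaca
rno-mir-224 hairpin: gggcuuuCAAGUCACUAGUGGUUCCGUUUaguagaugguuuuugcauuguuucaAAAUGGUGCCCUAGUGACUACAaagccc
None of the other 692 mature names in that RefSeq table has the seed of miR-224-5p, also when it is shifted by 1 base. The closest sequences, that of miR-105 among them, were 9 edits away, so reads of miR-224-5p have no near-identical copy in that table to be divided with. Within 100 kb of the hairpin the RefSeq gene table lists Gabre and Magea4 and 0 other miRNA genes. miR-452 has no entry in that table, so this 0 does not bear on its place. Exon borders were not used here, so the place of the hairpin in an intron was not checked.

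The deposited table gives RPM, reads per 1000000 reads of a library total. One read was worth a fixed RPM step, so read numbers could be recovered. Library totals ran from 11001459 to 12153889 reads. A count of 0 still allows a low level: its 95% exact interval ran up to 0.304 RPM in isograft 12 and 0.335 RPM in allograft 34. Listed miRNAs made up 46.6 to 65.6% of the normal totals, 36.8 to 54.5% of the isograft totals and 26.4 to 46.3% of the allograft totals. The rest of each total is not described, so RPM values also depend on it. The epithelial miR-184 alone took between 21.4 and 33.98% of each normal total, 13.2 to 14.4% for isografts and 2.48 to 5.45% for allografts. Intervals below are 95% exact binomial intervals and cover counting error only.

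miR-224-5p, the more abundant of the pair, was scarce in normal corneas, highest in isografts and in between in allografts. Its level was 8.63, 4.997 and 7.18 RPM in normal 12, 34 and 56, from 95, 55 and 79 reads. In the isografts it was 62.1, 72.9 and 65.1 RPM, from 755, 802 and 716 reads. In the allografts it was 16.8, 12.4 and 25.9 RPM, from 185, 137 and 285 reads. The 3 groups did not overlap, with every isograft above every allograft and every allograft above every normal cornea. The closest libraries of different groups were normal 12 (interval 6.98 to 10.5 RPM) and allograft 34 (interval 10.5 to 14.7 RPM), whose intervals met. The normal mean was 6.93 RPM ± 1.83, the isograft mean 66.7 ± 5.57 and the allograft mean 18.4 ± 6.86 (SD, n = 3 each). The isograft mean was thus 9.62 times the normal mean and 3.63 times the allograft mean, and the allograft mean 2.65 times the normal mean. Isografts were also the most even group, with a coefficient of variation of 8.36% against 26.3% in normal corneas and 37.3% in allografts. That evenness depended on the scaling: with median-of-ratios scaling the isografts varied by 31.8% and the allografts by 8.26%. By rank, miR-224-5p stood between places 208 and 248 of all listed miRNAs in the normal libraries, 119 to 133 in the isografts and 171 to 189 in the allografts.

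miR-452-5p, its partner from the same host gene, followed the same order at a far lower level. It was at 0.363, 0.545 and 0.363 RPM in normal 12, 34 and 56, which rest on 4, 6 and 4 reads. The isografts held 6.75, 10.3 and 7.45 RPM (82, 113 and 82 reads), and the allografts 1.999, 1.82 and 4.18 RPM (22, 20 and 46 reads). Here too the groups did not overlap, but counting error was wide where reads were few. The interval of normal 34, the highest normal library, was 0.20 to 1.19 RPM, against 1.11 to 2.81 for allograft 34, the lowest allograft. Those of allograft 56 (3.06 to 5.58 RPM) and isograft 12 (5.37 to 8.37 RPM) met as well. The mean of the normal libraries was 0.424 RPM ± 0.105, that of the isografts 8.16 ± 1.87 and that of the allografts 2.67 ± 1.31 (SD, n = 3 each). The isograft mean was 19.2 times the normal mean and 3.06 times the allograft mean, and the allograft mean was 6.29 times the normal mean. Both members share the libraries that stood high and low among the grafts: isograft 34 was the highest isograft and isograft 12 the lowest, and allograft 56 was the highest allograft and allograft 34 the lowest. In normal corneas they did not, since normal 34 was lowest for miR-224-5p and highest for miR-452-5p. Several of these places lie within counting error: miR-452-5p had 82 reads in both isograft 12 and isograft 56. Its order in normal corneas rests on 4, 6 and 4 reads. The order among the grafts is one of RPM values and was not particular to the pair. The share of listed miRNAs in the library totals ran the same way. It was 36.8, 54.5 and 48.8% in isograft 12, 34 and 56, and 33.9, 26.4 and 46.3% in allograft 12, 34 and 56.

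**Figure D1:**
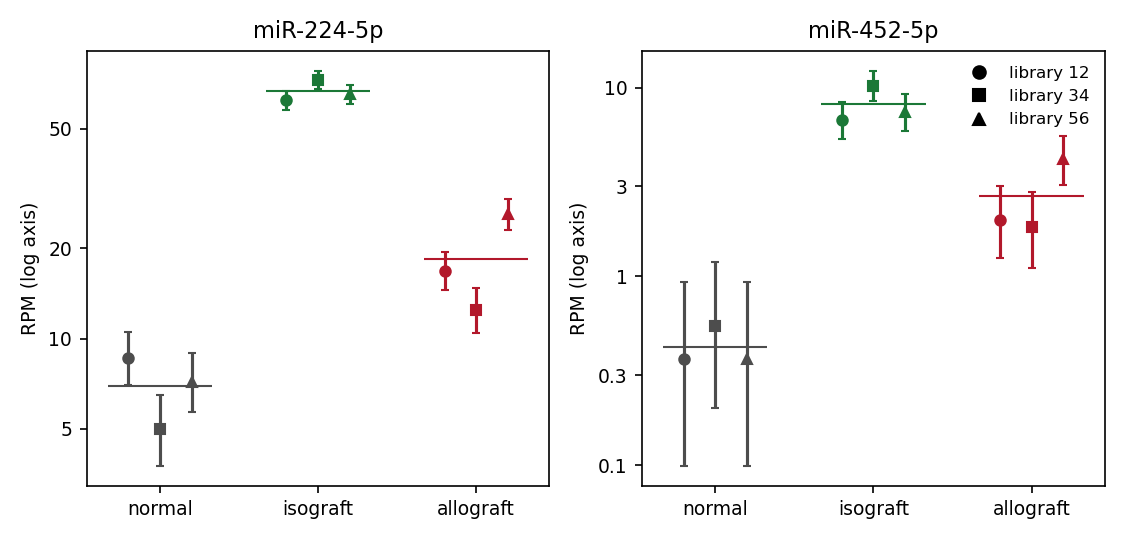
Levels of miR-224-5p (left) and miR-452-5p (right) in RPM on log axes, 1 symbol per library, with 95% exact binomial intervals as bars and the group mean as a horizontal line. Isografts lie highest and normal corneas lowest for both, with no overlap between groups; miR-224-5p runs from 62.1 to 72.9 RPM in isografts and from 12.4 to 25.9 RPM in allografts.

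On the scale used for the model, log2(RPM + 1), the isograft rise was of like size for both members and the allograft level lay between the other groups. Isografts exceeded normal corneas by 3.12 (SE 0.39) for miR-224-5p and by 2.67 (SE 0.32) for miR-452-5p, while the median of all 281 miRNAs kept for the fit was 0.05. Allografts exceeded normal corneas by 1.26 (SE 0.39) and 1.31 (SE 0.32), with a median of -0.14 over all. Of the isograft rise on this scale, 40.3% was present in allografts for miR-224-5p and 49.1% for miR-452-5p. These 2 differences share the normal libraries. Allografts differed from isografts by -1.86 (SE 0.39) for miR-224-5p and -1.36 (SE 0.32) for miR-452-5p, with a median of -0.29 over all. The added 1 RPM compresses the change of miR-452-5p most: on recovered reads edgeR, which needs no such constant, gave 4.13 for its isograft rise and 2.69 for its allograft rise.

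Among the 281 miRNAs kept, both rises in isografts were large, at place 8 for miR-224-5p and place 13 for miR-452-5p. Of all 281, miR-224-5p had the lowest value for allografts against isografts in the main settings. It was lowest in 15 of 22 alternatives, several of which cannot change this value, and within the lowest 4 in the others. miR-452-5p stood at place 19 by the same order, and over the settings in which it was kept its place ran from 9 to 65. By isograft rise, the places ran from 5 to 12 for miR-224-5p and from 1 to 28 for miR-452-5p. The members were chosen for a rise in isografts that was smaller in allografts, so these places are no result. A gap between groups of the kind seen in both members was not rare here. Isografts lay above normal corneas without overlap for 22.4% of the 281, allografts above normal corneas for 29.9%, and allografts below isografts for 22.4%. The full order, every isograft above every allograft and every allograft above every normal cornea, was held by 7 miRNAs, 2.49% of the 281. They were the 2 members with miR-351-5p, miR-145-5p, miR-504, miR-455-5p and miR-10b-5p, and since the rule asked for this order, the members' place among them is no result. miR-452-5p entered the fit through its isografts alone, as only those 3 libraries reached 5 RPM, whereas miR-224-5p reached 5 RPM in 8 of 9.

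The order of the groups did not depend on the scaling, while the size of the allograft rise did. With median-of-ratios scaling, RPM without miR-184 and scaling to the listed miRNAs, the groups kept that order without overlap for both members. These scalings moved the median difference of all miRNAs between allografts and normal corneas from -0.14 to -0.02, -0.56 and 0.54. The allograft value of miR-224-5p was then 1.37, 0.88 and 1.90, and relative to the median of all miRNAs it ran from 1.07 to 1.64 over all alternatives. For miR-452-5p the same range was wider, from 0.61 to 2.71.

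The balance of the pair and of its arms is a measure within a library that the library total does not touch. miR-452-5p made up 4.04, 9.84 and 4.82% of the reads of the pair in normal 12, 34 and 56, and 9.80, 12.3 and 10.3% in the isografts. In the allografts it made up 10.6, 12.7 and 13.9%. The mean share was 6.23% ± 3.15 for normal libraries, 10.8% ± 1.36 for isografts and 12.4% ± 1.66 for allografts (SD, n = 3 each). Normal and isograft libraries overlapped barely, normal 34 lying just above isograft 12, and isografts and allografts overlapped widely. With reads summed by group the share was 5.76% (14 of 243 reads, 3.19 to 9.48) for normal libraries, 10.9% (9.68 to 12.1) for isografts and 12.7% (10.3 to 15.4) for allografts.

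**Figure D2:**
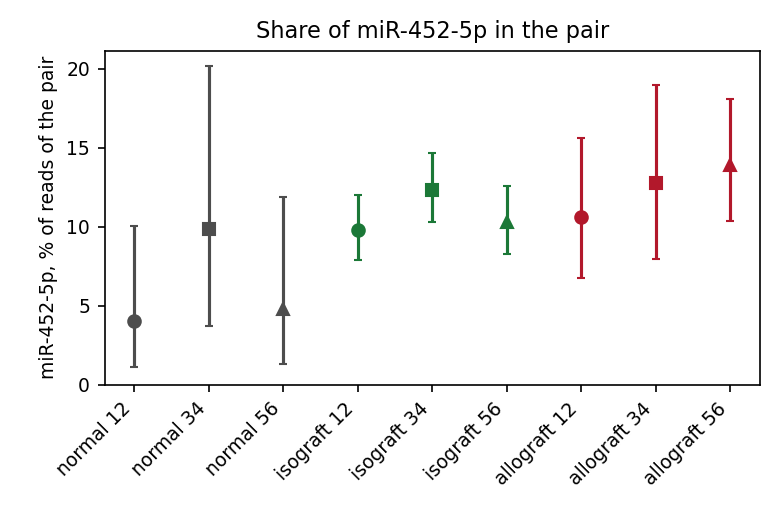
Reads of miR-452-5p as a percentage of the reads of miR-224-5p and miR-452-5p together, by library, with 95% exact binomial intervals. Normal shares run from 4.04 to 9.84%, isograft shares from 9.80 to 12.3% and allograft shares from 10.6 to 13.9%, and the intervals of the normal libraries are wide because they rest on 4 to 6 reads of miR-452-5p.

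The passenger arms stayed near the limit of detection. miR-224-3p had 2 reads in isograft 34 and 0 in the other 8 libraries, so the 3p arm held 0.0643% of the 3111 reads of its hairpin (interval 0.00779 to 0.232). This is the second stretch of capitals in the hairpin shown above. miR-452-3p had 0, 1 and 1 reads in the normal libraries, 5, 10 and 8 in the isografts and 1, 0 and 5 in the allografts. This arm held 7.56% of the 410 reads of miR-452 (5.19 to 10.6). By group its share was 12.5% for normal libraries (2 of 16 reads, 1.55 to 38.3), 7.67% for isografts (4.92 to 11.3) and 6.38% for allografts (2.38 to 13.4), intervals that overlap, so no difference was detectable at this depth. Neither passenger arm reached the level needed for the fit.

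The miRNAs whose levels ran most like those of the pair were led by miR-145-5p, and 2 of them, miR-351-5p and miR-504, lie on chromosome X. Likeness is Pearson's r of log2(RPM + 1) over the 9 libraries, a description that the differences between the 3 groups largely set. Each member was the nearest of 280 miRNAs to the other, at r = 0.976, while the median r over all miRNAs was 0.11 for miR-224-5p and 0.15 for miR-452-5p. Both were chosen for the same pattern over these libraries, so their nearness to each other is no result. Next for miR-224-5p came miR-145-5p (0.961), miR-351-5p (0.954), miR-504 (0.942) and miR-455-5p (0.938). For miR-452-5p they were miR-145-5p (0.954), miR-214-3p (0.949), miR-455-5p (0.947) and miR-145-3p (0.934). miR-145-5p, of smooth muscle and fibroblasts, was at 94.6, 41.2 and 48.1 RPM in normal corneas, 343, 728 and 586 in isografts and 216, 141 and 285 in allografts. Its isograft mean lay 3.18 (SE 0.41) above normal and its allograft mean 1.83 (SE 0.41). miR-351-5p, of the miR-322 and miR-503 cluster on chromosome X, was at 24.4, 15.0 and 29.4 RPM in normal corneas, 105, 224.4 and 103 in isografts and 32.5, 32.7 and 46.1 in allografts. It stood 2.55 (SE 0.41) above normal in isografts and 0.70 (SE 0.41) in allografts. Its cluster mates miR-322-5p and miR-503-5p were not lower in allografts than in isografts. They differed by 0.09 (SE 0.45) and 0.87 (SE 0.48), against -1.85 (SE 0.41) for miR-351-5p. miR-504, also on chromosome X, had means of 1.54 RPM ± 0.472, 9.37 ± 1.00 and 4.63 ± 1.31, and miR-455-5p, from an intron of a collagen gene, 32.2 ± 7.72, 171 ± 60.1 and 89.9 ± 13.1 (normal, isograft and allograft, SD, n = 3 each).

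**Figure D3:**
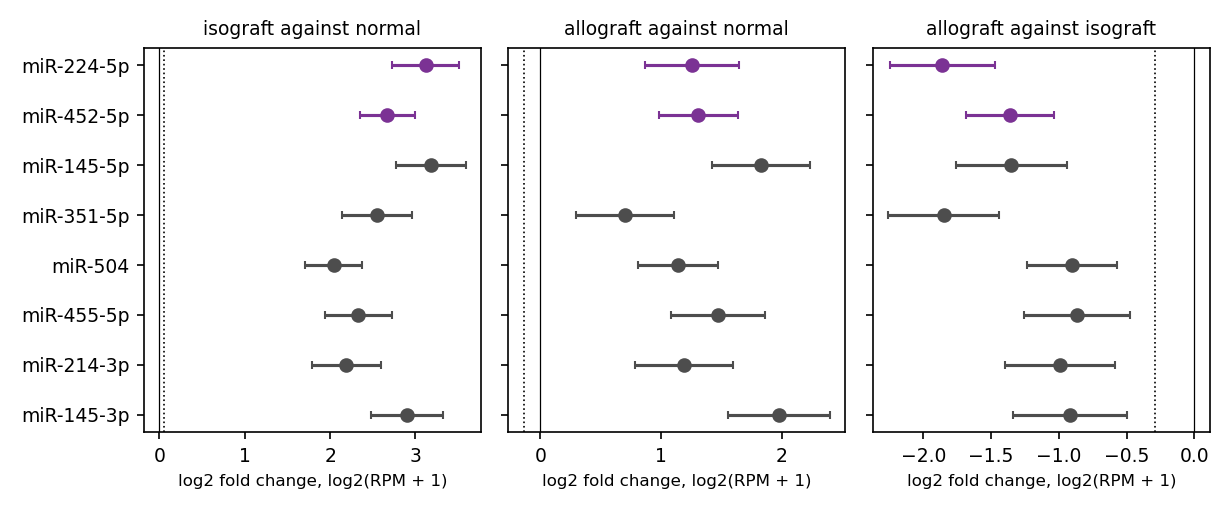
Log2 fold changes on the log2(RPM + 1) scale with standard errors for the pair (purple) and the 6 other miRNAs nearest to it (grey) in the 3 comparisons, with the median of all 281 miRNAs as a dotted line. All 8 lie above 0 in both grafts against normal corneas and below 0 in allografts against isografts, where miR-224-5p is at -1.86 and miR-351-5p at -1.85.

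Markers of stroma and fibroblasts were mostly higher in both grafts than in normal corneas, as the pair was, while few passed the threshold between the grafts. This list of 11 miRNAs, of which 10 were kept, had 8 members higher and 0 lower in isografts against normal corneas, where 16.7% of all miRNAs were higher and 4.63% lower (limma, Benjamini-Hochberg adjusted p under 0.05). Its median was 3.02. In allografts against normal corneas 7 were higher and 0 lower (23.1% and 24.2% over all), with a median of 1.90, and against isografts 0 were higher and 3 lower (13.5% and 21.0% over all), with a median of -0.91. That last count, 3 of 10, is near the share over all miRNAs. It also rested on single libraries, at 0 without isograft 34 or allograft 34 and 8 without isograft 12. The summed level of the list was 9780 to 12053 RPM over the normal libraries, 18940 to 39088.5 over the isografts and 12295 to 23321 over the allografts, and 0 of its kept members were at 0 in all libraries of a group. In bulk tissue a change in the number of cells of a type and a change in RNA per cell cannot be told apart. Its part in the levels of the pair was not tested.

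Set against the summed level of that list within each library, the pair was highest in isografts. A sum weighs the abundant members of the list most, and its mean was 10861 RPM in normal corneas and 31509 RPM in isografts. By the median of its kept members the list rose by 3.02 in isografts. That is near the 3.12 of miR-224-5p and above the 2.67 of miR-452-5p. Per 1000 RPM of the list, miR-224-5p was at 0.716, 0.511 and 0.668 RPM in normal corneas, 3.28, 1.86 and 1.78 in isografts and 0.971, 1.01 and 1.11 in allografts, with no overlap. miR-452-5p was at 0.0301, 0.0557 and 0.0338 RPM, at 0.356, 0.263 and 0.204, and at 0.115, 0.148 and 0.179 on the same measure, again in groups that did not overlap. The share of all miRNAs with such gaps on this measure was not counted. Both members were chosen for this order of groups, so the gaps are no result. Isograft 12 had the lowest list sum of the isografts, 18940 RPM against 39088.5 and 36500, and miR-224-5p there was 62.1 RPM against 72.9 and 65.1. This single library also had the lowest share of listed miRNAs among the isografts, 36.8%. The cause was not tested. Against miR-145-5p alone the isografts did not stand apart. Per 1000 RPM of miR-145-5p, miR-224-5p was at 91.2, 121 and 149 RPM in normal corneas, 181, 100 and 111 in isografts and 78.0, 88.0 and 90.8 in allografts, so isografts overlapped normal corneas. On this measure the allografts averaged 85.6 ± 6.73, and the normal corneas and isografts 121 ± 29.1 and 131 ± 43.9 (SD, n = 3 each). Every allograft lay below every other library, but only just. Allograft 56 was at 90.8 and normal 12, which rests on 95 reads of miR-224-5p, at 91.2, a gap within counting error. For miR-452-5p the allografts were not lowest. Per 1000 RPM of miR-145-5p, miR-452-5p averaged 8.22 ± 4.74 RPM over the normal libraries, 15.5 ± 3.67 over the isografts and 12.3 ± 2.74 over the allografts, and the allografts overlapped both other groups.

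**Figure D4:**
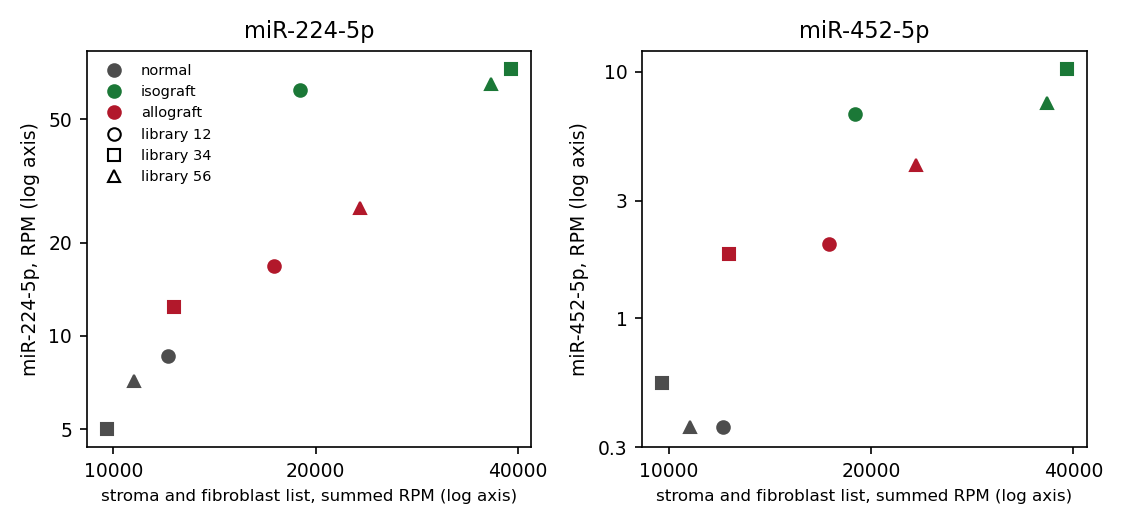
Level of miR-224-5p (left) and miR-452-5p (right) against the summed level of the stroma and fibroblast list, both in RPM on log axes, 1 symbol per library. Isograft 12 (green circle) has 62.1 RPM of miR-224-5p at a list sum of 18940 RPM, and allograft 56 (red triangle) has 25.9 RPM at 23321 RPM. These are single libraries, and the part of the listed cells in the levels was not tested.

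Neither the stroma list nor any other marker list had summed levels in the order of the pair without overlap. Over all 281 miRNAs, 16.7% were higher and 4.63% lower in isografts than in normal corneas, 23.1% and 24.2% in allografts than in normal corneas, and 13.5% and 21.0% in allografts than in isografts, which are the shares to read the next counts against. Leukocyte markers were highest in allografts, at 4988 to 9068 RPM summed, against 854 to 1825 in isografts and 295 to 308 in normal corneas. Of the 8 kept, 7 were higher in isografts (median 2.30) and 8 in allografts (median 5.33) than in normal corneas, and 8 were higher in allografts than in isografts. Epithelial markers were highest in normal corneas, at 274968 to 425400 RPM, against 162160 to 197808 and 38194 to 92918 in isografts and allografts. Of 12, 4 were lower in isografts (median -0.74), 11 in allografts (median -1.82), and 5 were lower in allografts than in isografts. The first of these counts was 0 without normal 34 or normal 56, and the last was 11 without isograft 12 or allograft 56. Markers of vessel endothelium, such as miR-126a-3p, are not specific to the inner layer of the cornea. They summed to 1140 to 1465 RPM, 2612 to 7529 and 3458 to 5803 in normal corneas, isografts and allografts. Of these 7, 4 were higher in isografts (median 1.33), 4 were higher and 1 lower in allografts against normal corneas (median 2.21), and 0 passed the threshold between the grafts. Muscle markers summed to 243 to 323, 60.2 to 126 and 38.9 to 53.0 RPM. Of 3 kept, 2 were lower in isografts (median -1.55) and 3 in allografts (median -1.42) than in normal corneas. Red blood cell markers summed to 82.4 to 343, 14.0 to 181 and 18.5 to 1068 RPM. Of 2 kept, 1 was lower in each graft type, and that count was 0 or 2 when single libraries, among them normal 56, were left out. The part of these cells in the levels of the pair was not tested.

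Other miRNAs described as induced by TGF-beta were mostly higher in isografts, as miR-224-5p was, but 3 of them were higher still in allografts. Of 12 listed, 10 were kept, and 7 were higher and 0 lower in isografts against normal corneas, with a median of 1.77. Examples are miR-143-3p at 3.15 (SE 0.37, limma adjusted p = 1.99e-07), which is made with miR-145 in smooth muscle, and, with a rise of 2.64 (SE 0.34, limma adjusted p = 4.18e-07), miR-21-5p, a miRNA of repair and fibrosis. In allografts 6 were higher and 1, miR-192-5p of kidney and gut epithelium, lower, with a median of 1.51. Between the grafts 3 were higher in allografts. These were miR-155-5p of activated leukocytes (difference 2.92, SE 0.39), the minor arm miR-21-3p (2.05, SE 0.36) and, least of them, miR-21-5p (1.11, SE 0.34). miR-145-5p was lower there (-1.35, SE 0.41), and the adjusted p-values of limma for these 4 lay between 1.25e-06 and 0.0129. The median of the list between the grafts was -0.48. The list shares miR-143-3p, miR-145-5p, miR-199a-5p and miR-214-3p with the stroma list. Of 9 miRNAs described as repressed by TGF-beta, all kept, 3 were lower in isografts (miR-200a-3p, miR-200b-3p and miR-205), and in allografts 5 were lower and miR-29b-3p higher, with medians of -0.70 and -1.47. The isograft count was 0 without normal 34 or normal 56. Between the grafts 2 were lower in allografts and 0 higher, with a median of -0.88, and 1 to 5 were lower when single libraries were left out. Over all miRNAs 21.0% were lower between the grafts, so a count of 2 of 9 is near the background. The shares over all miRNAs that were higher were 16.7% in isografts and 23.1% in allografts against normal corneas and 13.5% between the grafts, and 4.63% and 24.2% were lower in isografts and allografts against normal corneas. The lists of repressed miRNAs and of corneal epithelium share 6 members: miR-200a-3p, miR-200b-3p, miR-200c-3p, miR-141-3p, miR-429 and miR-205.

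Position on chromosome X was shared with other miRNAs, and 2 of the 34 kept held the order of the pair. Besides miR-224-5p the table lists 105 mature miRNAs whose RefSeq genes all lie on chromosome X, and 34 of them were kept. In isografts 14 were higher and 0 lower than in normal corneas, with a median of 0.81, or 8 without normal 34 or isograft 34. In allografts 13 were higher and 1 lower, with a median of 0.58. Between the grafts 8 were higher and 5 lower in allografts, with a median of -0.01 that was above 0 under median-of-ratios scaling and scaling to the listed miRNAs. The shares over all miRNAs were 16.7% higher and 4.63% lower, 23.1% and 24.2%, and 13.5% and 21.0% in these 3 comparisons. The 2 with the full order of groups seen in the pair, miR-351-5p and miR-504, are 5.88% of the 34. Over all 281 miRNAs 2.49% held that order, the members among them. The part of position on chromosome X was not tested.

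The promoter of Gabre is shown because the members come from its transcript. The sequence runs from 250 bases before to 50 after the gene start used by RefSeq (GRCr8, chrX:155120672-155120971, minus strand), and the hairpin of miR-224 begins 13510 bases further along the gene. Capitals mark matches to the GC box, searched as GGGCGG on both strands.
Gabre promoter: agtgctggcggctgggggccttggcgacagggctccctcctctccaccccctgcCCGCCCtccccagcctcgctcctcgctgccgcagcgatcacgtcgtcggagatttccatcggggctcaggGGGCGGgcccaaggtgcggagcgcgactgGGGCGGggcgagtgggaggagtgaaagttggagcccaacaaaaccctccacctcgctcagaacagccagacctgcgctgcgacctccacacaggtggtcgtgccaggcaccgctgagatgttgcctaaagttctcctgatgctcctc
The window holds 3 such matches, and 33.1% of 33469 RefSeq promoters of this length hold at least 1. G and C make up 67.3% of it, against a mean of 52.7% over all promoters. The AP-1 site TGACTCA (in 4.63% of promoters), the SMAD palindrome GTCTAGAC (in 0.197%) and the TATA box TATAAA (in 14.2%), each searched on both strands, had 0 matches in these letters. Such matches describe the sequence and are not evidence of binding.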

How the data were processed

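Small RNA of 9 rat cornea samples was analysed, 3 per group by the tissue labels. The authors deposited RPM values for 765 mature miRNAs, 9 columns matched by title and 0 unmatched. The tools BWA and bcl2fastq and the build rn6 are named in the submitters' processing notes. Trimming, miRNA annotation and the handling of reads with several matches are not given there. A Trizol extraction and a TruSeq small RNA kit are named in the labels' protocols. Whole reads were recovered from the RPM steps, and 100% of values came out whole within 0.1 read. The filter of 5 RPM or more in 3 or more libraries left 281 miRNAs. limma 3.58.1 in R 4.3.3 was fitted with a mean-variance trend to log2(RPM + 1) over all 9 libraries, without covariates. Its p-values were adjusted by Benjamini-Hochberg over all miRNAs kept, with a threshold of 0.05, and are given for other miRNAs only. The fit was checked on simulated data. Alternatives were edgeR 4.0.16 and DESeq2 1.42.0 on recovered reads, other pseudocounts, filters, scalings and variance models, leaving out single libraries, and a block for the title number. RefSeq tables of GRCr8 gave sequences and neighbours, while the authors' build was rn6. The rule for named miRNAs took the members, their other arms, the 5 nearest to each by Pearson's r, miRNAs with the same seed or within 100 kb, those on the same chromosome as a summary, and examples from the fixed lists. The members and the lists were chosen with earlier results of these data known.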

Additional observations from a re-analysis of the deposited data

How the results depend on the processing

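Of 129 values of the 2 miRNAs under 22 alternatives, 0 changed direction and 115 moved by less than the spread within groups. Several alternatives cannot move a fold change in this design: the filters, the variance models, fitting only the groups compared and the title-number block. The same holds when the library left out belongs to the group not compared. These unmoved values are part of the 115. With a pseudocount of 5 RPM the isograft rise was 2.60 for miR-224-5p and 1.27 for miR-452-5p, the allograft rise of miR-452-5p was 0.49 and its difference between the grafts -0.78; with 0.5 RPM its rises were 3.21 in isografts and 1.71 in allografts. On recovered reads its rises were 4.13 and 2.69 with edgeR and 4.18 and 2.70 with DESeq2. Without miR-184 in the RPM total the allograft rise of miR-224-5p was 0.88. Scaled to the listed miRNAs, allograft rises were 1.90 for miR-224-5p and 1.69 for miR-452-5p, and the difference of miR-224-5p between the grafts was -1.47. The filter at 50 RPM left miR-452-5p out. The cause of these moves was not tested, beyond the constant added to low values.

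Counts of all miRNAs past the threshold, 60 in isografts and 133 in allografts against normal corneas and 97 between the grafts, depended on the settings more. The 50 RPM filter, which left 152 miRNAs, gave 30, 63 and 44. In isografts against normal corneas (47 higher, 13 lower) median-of-ratios scaling gave 115 (66 and 49), scaling to the listed miRNAs 122 (107 and 15), RPM without miR-184 62 (38 and 24), edgeR 114 and DESeq2 119. In allografts against normal corneas (65 and 68) the last 2 scalings gave 142 higher and 44 lower, and 51 and 105. Between the grafts (38 and 59) median-of-ratios scaling gave 168, edgeR 163, DESeq2 171, and scaling to the listed miRNAs 86 higher and 55 lower. With single libraries left out the counts between the grafts ran from 52 (without allograft 34) to 147 (without isograft 12), and no value of the 2 miRNAs moved beyond the spread within groups. With the title number as a replicate block 66, 143 and 112 were called. The values of the 2 miRNAs cannot change under this block, since every group holds each number. Same-numbered libraries did not deviate together (r from -0.51 to 0.56 across miRNAs, with 1 of 9 libraries nearest to its own number), so the numbers were not taken as pairs. Of 594 list counts under alternatives 475 stayed within 1.5 times the count given. Depth limits the passenger arms and miR-452-5p in normal corneas most.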
